A study of Bos taurus with 30 samples.

Results

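The family of miR-148 and miR-152 was represented by 3 mature miRNAs, bta-miR-148a, bta-miR-148b and bta-miR-152, chosen by name and followed across every library. They were 3 of the 1030 mature miRNAs listed and of the 863 with at least 1 read, and all 3 were among the 476 that passed the filter on low values and were tested. The tissue was the arcuate nucleus (ARC), the part of the hypothalamus that senses metabolic state, collected from 30 Holstein-Friesian bull calves at 12 weeks of age, with 1 small RNA library per calf. From 2 weeks of age, 15 calves (HI) received 1.5 kg of milk replacer in 10 litres per day with concentrates ad libitum, and 15 calves (MOD) received 0.5 kg in 4 litres per day with 0.5 kg of concentrates. The diets differed in concentrate as well as in milk replacer, so these parts of the feeding cannot be told apart.

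A miRNA guides a protein complex to messenger RNAs that match its seed, the bases near its 5′ end, and lowers their translation or stability. The members of this family share 1 seed and are therefore predicted to act on overlapping targets, among them the DNA methyltransferase DNMT1 and lipid genes such as the LDL receptor. miR-148a is in addition known as the leading miRNA of cow's milk, which is why its level was set beside its relatives at both milk replacer allowances. The miRNA content of the milk replacer and of blood was not measured here.

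In the RefSeq annotation of the bovine assembly ARS-UCD2.0, MIR148A lies on chromosome 4 between the coding genes NFE2L3 and NPVF, MIR148B on chromosome 5 within COPZ1, and MIR152 on chromosome 19 within COPZ2. COPZ1 and COPZ2 encode related subunits of the COPI vesicle coat. A pair of further rows share the family name. MIR148D overlaps MIR148A and MIR148C overlaps MIR152 in the same annotation, and bta-miR-148c and bta-miR-148d had 2 and 3 reads in all 30 libraries together, so no level was derived for them.

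Between 6291369 and 21083247 reads per library fell on miRNAs, and 9 of the 30 libraries (3 HI, 6 MOD) were sequenced more deeply than the other 21 (12 HI, 9 MOD). Levels are given as CPM, read counts relative to library size as the authors scaled them. Another set of 9 libraries (5 HI, 4 MOD) stood apart in miRNAs known from the pituitary, the gland below the ARC. The leading miRNA of that list, miR-375, ran from 3192 to 47575 CPM in them and from 75.7 to 1268 CPM in the other 21. These sets are called pituitary-marker-high and pituitary-marker-low below. The 10 miRNAs of the pituitary list summed to 10003 to 100739 CPM in the high libraries and to 2289 to 7130 CPM in the low ones, and none was at 0 in every library. The 8 miRNAs of the neuron list, led by miR-9-5p, summed to 18770 to 66933 CPM in the high libraries and to 54897 to 96230 CPM in the low ones, so neuronal miRNAs were present throughout. In bulk tissue, fewer cells of a type and less RNA per cell cannot be told apart.

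bta-miR-148a was the major member of the family. Its level was lowest at 5295 CPM, had a median of 7376 CPM and reached 35360 CPM, with a mean of 10043 ± 6650 CPM (SD, n = 30). By mean level it was number 22 of the 476 tested miRNAs, between bta-miR-101 at 10913 CPM and bta-miR-125a at 9314 CPM. It held 86.4% ± 4.25 of the family's reads and between 76.7% and 95.3% in single libraries.

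bta-miR-148b was the second member, with a lowest level of 997 CPM, a median of 1232 CPM and a highest level of 1634 CPM. Its mean of 1263 ± 161 CPM (SD, n = 30) placed it at number 80, between bta-miR-532 and bta-miR-769. It made up 13.1% of the family on average and at most 22.6% in a single library.

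bta-miR-152 was the least abundant member. It ran from 31.5 CPM through a median of 44.9 CPM to 122.7 CPM, with a mean of 54.1 ± 24.2 CPM (SD, n = 30), and stood at number 250 between bta-miR-502a and bta-miR-455-5p. Even so, it was read at least 281 times in each library. Together the 3 members took 1.08% ± 0.447 of the miRNA reads, from 0.623% to 2.60%.

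The order bta-miR-148a above bta-miR-148b above bta-miR-152 held in 30 of 30 libraries, and the ranges of the 3 members did not overlap. Within a library, bta-miR-148a exceeded bta-miR-148b by 2.81 on the log2 scale and bta-miR-152 by 7.44, and bta-miR-148b exceeded bta-miR-152 by 4.63. Each of these differences had a 2-sided paired permutation p of 1e-05, the smallest that 100000 resamples can give.

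**Figure D1:**
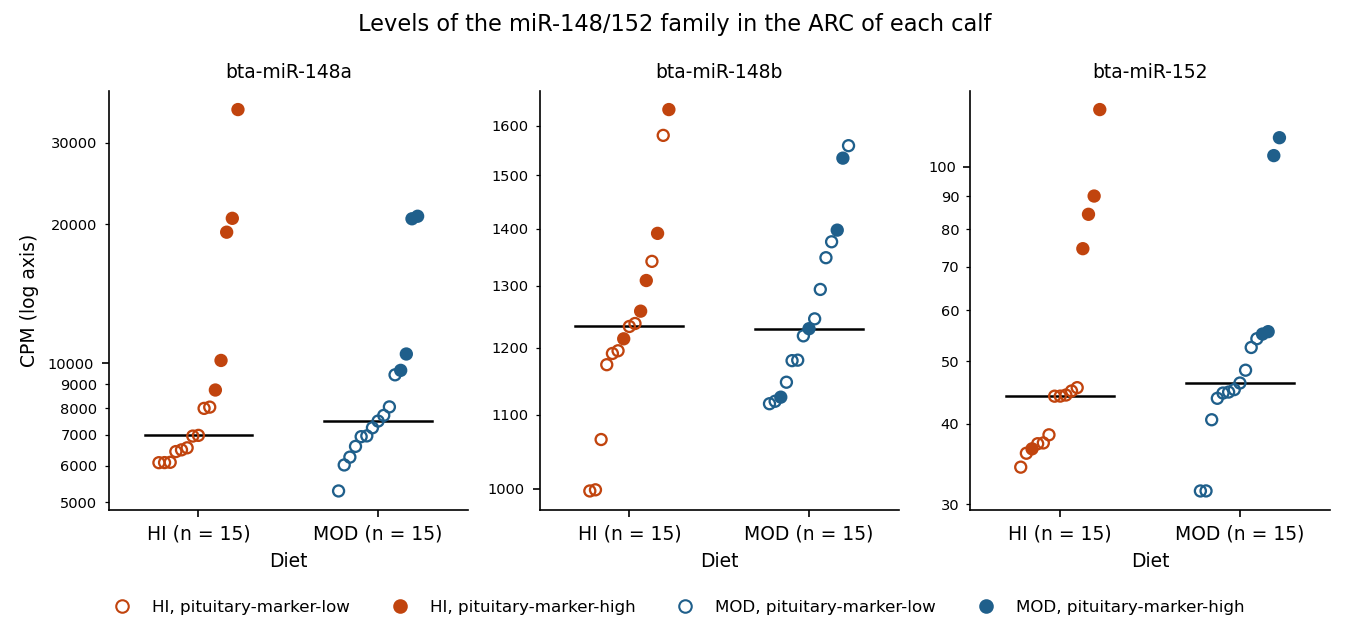
CPM of each family member on a logarithmic axis, with 1 point per calf and the median of each diet as a line. HI calves are orange and MOD calves blue, and filled points are the 9 pituitary-marker-high libraries. For bta-miR-148a and bta-miR-152 the filled points make up the upper tail on each diet, apart from HI calf 14 in bta-miR-152, while for bta-miR-148b open and filled points are mixed.

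No member passed the test between the diets. Under the thresholds used by the study, an adjusted p below 0.1 and a fold change above 1.5, 0 of the 3 members were called, and the background was 0 of 476 tested miRNAs (0%) by limma. edgeR on recovered reads of 29 libraries also called 0, and DESeq2 on the same reads called 1, bta-miR-2419-3p, which is outside the family. The study, with another version of edgeR and all 30 libraries, reported that miRNA as its only differentially expressed one. At an unadjusted p below 0.05 the members again gave 0 of 3, beside 21 of 476 (4.41%). The main test of diet for single miRNAs was a limma fit across the 476 on log2(CPM + 0.25), with Benjamini-Hochberg adjustment, and a permutation test of the mean log2 difference stands beside it for each member.

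bta-miR-148a ran from 6096 to 35360 CPM in HI calves with a median of 6983 CPM, and from 5295 to 20790 CPM in MOD calves with a median of 7499 CPM. Most calves of each diet lay within the range of the other, with 1 HI calf (35360 CPM) above the highest MOD calf, and 7 of 15 HI calves lay above the MOD median. The means were 10787 ± 8197 and 9300 ± 4821 CPM, and the log2 difference (HI minus MOD) was 0.10 (SE 0.24, adjusted p = 0.984 by limma; permutation p = 0.707). As a fold this is 1.07, with a 95% interval from 0.760 to 1.51. The sign rested on 1 library, since without the highest (HI calf 7) the log2 difference was -0.043. In the 21 pituitary-marker-low libraries the fold was 0.961 (0.851 to 1.09), with the MOD calves nominally higher.

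For bta-miR-148b, HI calves ran from 997 to 1634 CPM with a median of 1234 CPM and MOD calves from 1116 to 1559 CPM with a median of 1230 CPM. The medians were nearly equal and the ranges overlapped. The log2 difference was -0.02 (SE 0.07, adjusted p = 0.984 by limma; permutation p = 0.714), which is a fold of 0.983 with an interval from 0.891 to 1.09. This was the narrowest interval in the family, and its counterpart in the pituitary-marker-low libraries ran from 0.853 to 1.07.

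For bta-miR-152, HI calves ran from 34.3 to 122.7 CPM with a median of 44.1 CPM and MOD calves from 31.5 to 111.0 CPM with a median of 46.3 CPM. Only 4 of 15 HI calves lay above the MOD median, and 11 of 15 MOD calves above the HI median, yet the means of 54.3 and 53.9 CPM were close. The log2 difference was -0.02 (SE 0.19, adjusted p = 0.985 by limma; permutation p = 0.929), a fold of 0.988 with an interval from 0.753 to 1.30. In the pituitary-marker-low libraries the fold was 0.933 (0.814 to 1.07).

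Depth and animal code were unevenly spread over the diets, and the sign of the difference turned between these classes. In the shallower and the deeper libraries the log2 difference was 0.19 and -0.18 for bta-miR-148a, 0.03 and -0.13 for bta-miR-148b, and 0.06 and -0.17 for bta-miR-152. In the 9 calves of lowest animal code (7 HI, 2 MOD), a class set from earlier results of these data, it was 0.30, 0.11 and 0.29, and in the other 21 calves -0.20, -0.02 and -0.26. The smallest exact permutation p among these 12 values was 0.246.

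The balance between the members can be read within each library, where the scaling of the library cancels. The ratio of bta-miR-148a to bta-miR-148b ran from 3.86 through a median of 6.52 to 21.6 in HI calves and from 3.40 through 6.05 to 14.7 in MOD calves. The larger milk replacer allowance thus went with no detectable shift of bta-miR-148a against its closest relative in abundance: the ratio was 1.09-fold as high in HI calves (95% interval 0.784 to 1.51, permutation p = 0.603, adjusted over the 3 ratios 0.904). Against bta-miR-152 it was 1.08-fold as high (0.923 to 1.27, permutation p = 0.315, adjusted 0.904). The ratio of bta-miR-148b to bta-miR-152 was 0.995-fold as high (0.775 to 1.28, permutation p = 0.968). Without the pituitary-marker-high libraries these folds were 1.01, 1.03 and 1.02. Only for bta-miR-148a and for its ratio to bta-miR-148b did the interval over 30 libraries reach a fold of 1.5, so for these a change of that size was at the edge of what the data could show.

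**Figure D2:**
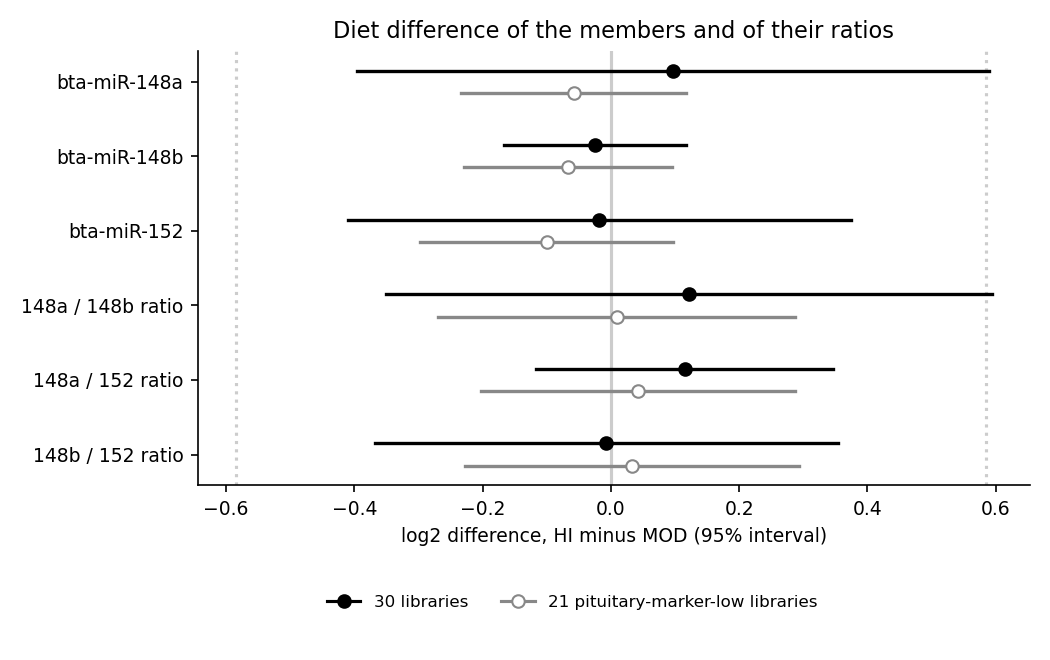
Difference between diets (HI minus MOD, log2) with its 95% interval for each member and each ratio within a library, over 30 libraries (black) and over the 21 pituitary-marker-low libraries (grey). Dotted lines mark a fold of 1.5 in either direction, and every interval includes 0.

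The miRNAs that share a known context with the family were described in the same fit. Of 26 miRNAs known to be abundant in milk, all 26 were tested and 0 were called; 1 was higher in HI calves at an unadjusted p below 0.05 and 0 were lower, beside 8 of 476 higher (1.68%) and 13 lower (2.73%) over all tested miRNAs. That miRNA was bta-miR-146b, known from innate immune signalling, at a log2 difference of 0.44 (unadjusted p = 0.0433, adjusted p = 0.912 by limma). bta-miR-22-3p (0.12) and bta-miR-30b-5p (-0.15) came next by p. The log2 difference was above 0 for 23 of the 26, with a median of 0.07, beside 235 of 476 and a median of -0.002 over all tested miRNAs. The list shares 4 miRNAs with the pituitary list, at a median of 0.68, and without these and bta-miR-148a it gave 18 of 21 above 0 and a median of 0.07. The pituitary list itself was above 0 for 8 of 8, with a median of 0.64, and the milk list summed to a median of 418650 CPM in the 9 pituitary-marker-high libraries (5 HI, 4 MOD) and 328661 CPM in the 21 low ones. Refits of the lists, without the high libraries or with the code class as a term, were added after seeing the data. Without the high libraries 15 of the 26 were above 0, with a median of 0.03, beside 220 of 476 and a median of -0.015. There bta-miR-146b was at 0.29 (unadjusted p = 0.191 by limma). With the code class as a term 7 of 26 were above 0, with a median of -0.03, beside 247 of 476 and 0.005. The lean of the list thus turned. Milk-list miRNAs are also made by many tissues, and 8 of them exceeded bta-miR-148a in mean level here, led by bta-miR-26a at 145317 CPM.

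Of 14 miRNAs known to act on lipid metabolism, 13 were tested, 0 were called and 1 was lower in HI calves at an unadjusted p below 0.05, beside 0 called and 13 lower (2.73%) of all 476 tested miRNAs. This was bta-miR-33b, which is encoded in a sterol regulatory gene (log2 difference -0.45, unadjusted p = 0.0126, adjusted p = 0.912 by limma). It was a low miRNA with mean levels of 4.53 CPM in HI and 5.98 CPM in MOD calves. Its relative bta-miR-33a had a difference of -0.22 and bta-miR-30c of -0.10. With the code class as a term its difference was -0.16 (unadjusted p = 0.165 by limma), and without the pituitary-marker-high libraries it was -0.47 (unadjusted p = 0.0318). The median of the list was 0.03.

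Of 8 miRNAs known to act on DNA methyltransferases or their maintenance partners, which include the 3 family members, 0 were called. At an unadjusted p below 0.05, 3 were lower in HI calves: bta-miR-29a (log2 difference -0.15), bta-miR-29c (-0.19) and bta-miR-342 (-0.27), each with an adjusted p of 0.912 by limma. Over all tested miRNAs 13 of 476 (2.73%) were lower at that level. The mean centred log2 level of the list lay between -0.38 and -0.15 in the 4 HI calves with the lowest animal codes among the pituitary-marker-low libraries. It lay between -0.12 and 0.02 in the 6 other HI calves and between -0.07 and 0.06 in the 10 MOD calves with other codes, and at -0.11 in the 1 MOD calf of the lowest codes. Among the pituitary-marker-high libraries the HI calves of the lowest codes lay higher, at 0.08 to 0.32 (3 calves) against 0.01 to 0.02 (2 others). There the MOD calves lay at -0.17 (1 calf of the lowest codes) and at 0.10 to 0.47 (3 others). The lowest codes hold 7 HI and 2 MOD calves over all libraries. With the code class as a term 0 of the 8 passed an unadjusted p of 0.05 by limma, beside 10 of 476. The same 3 miRNAs were then at -0.08, -0.06 and -0.05. Without the pituitary-marker-high libraries 1 of the 8 passed, bta-miR-29a (-0.16, unadjusted p = 0.0425 by limma), beside 25 of 476. The part of the code class in this result was not tested further. The 3 family members were not among those of the list that were lower and lay at 0.10, -0.02 and -0.02, and the median of the list was -0.09.

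bta-miR-148a and bta-miR-152 varied much more between calves than bta-miR-148b. Over 30 libraries the SD of the log2 level was 0.68 for bta-miR-148a, and 410 of the 476 tested miRNAs had a smaller one. It was 0.53 for bta-miR-152, with 363 smaller. For bta-miR-148b it was 0.18, and 442 miRNAs had a larger one. Counting error was small beside this spread, at a coefficient of variation of at most 0.482%, 5.97% and 1.15% for bta-miR-148a, bta-miR-152 and bta-miR-148b.

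The wide spread lay in the pituitary-marker-high libraries. In the 21 low libraries the SD was 0.19 for bta-miR-148a, 0.17 for bta-miR-148b and 0.21 for bta-miR-152, each under the median of 0.28 over all tested miRNAs. There bta-miR-148a ran from 5295 to 9440 CPM and bta-miR-152 from 31.5 to 54.2 CPM. These libraries gave a narrow range of levels for the whole family.

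Among the high libraries, bta-miR-148a was at 19203, 20576, 35360, 10141 and 8752 CPM in HI calves 2, 6, 7, 9 and 14. In MOD calves 2, 4, 9 and 12 it was at 9652, 20530, 10471 and 20790 CPM. Thus 5 of the 9 lay between 19203 and 35360 CPM, and the other 4 between 8752 and 10471 CPM, around the highest of the low libraries at 9440 CPM.

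bta-miR-152 was at 84.4, 90.1, 122.7, 74.7 and 36.6 CPM in the same HI calves. In the same MOD calves it was at 55.6, 111.0, 55.1 and 104.1 CPM. The 5 calves highest in bta-miR-148a were also the 5 highest in bta-miR-152, and HI calf 14 lay within the low libraries' range.

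bta-miR-148b was at 1258, 1309, 1634, 1392 and 1214 CPM in these HI calves. In these MOD calves it was at 1126, 1397, 1230 and 1534 CPM. Here the 2 sets of libraries overlapped, and the difference of their means turned with the scaling. With the deposited CPM the mean was 1344 ± 163 in the high and 1229 ± 151.8 in the low libraries. With scaling by library size alone, as CPM, it was 1197 ± 147 and 1305 ± 252. The corresponding means of bta-miR-148a were 14679 and 7301 on this second scale and those of bta-miR-152 were 70.1 and 44.5, higher in the high libraries on either scale.

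**Figure D3:**
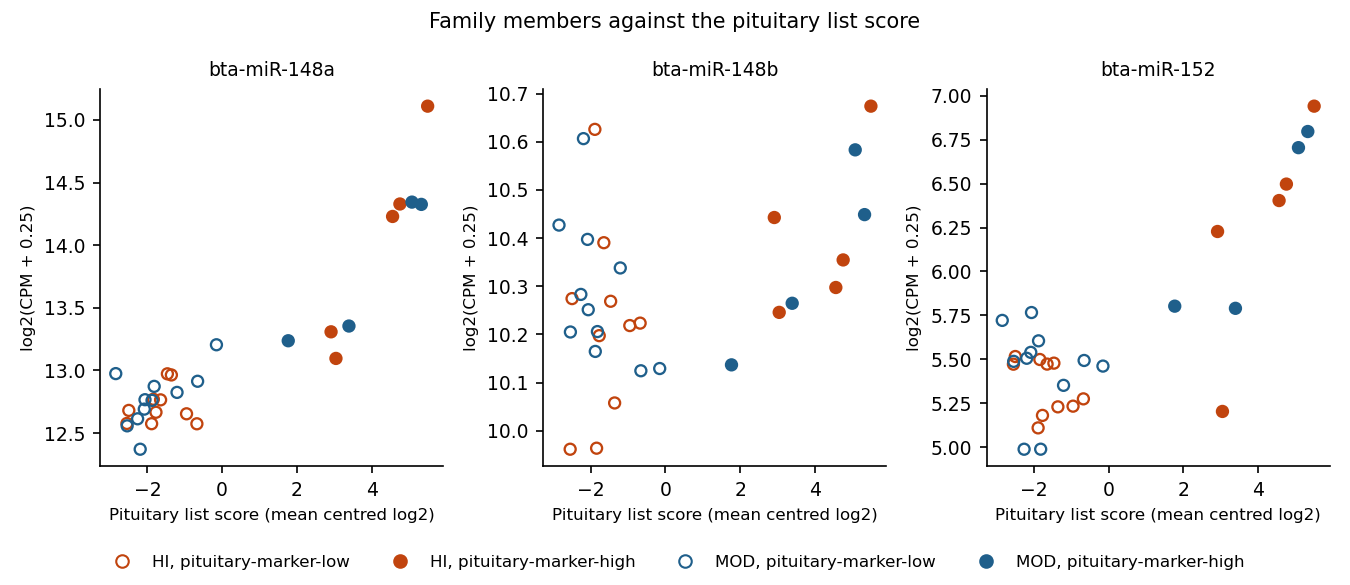
Level of each member, as log2(CPM + 0.25), against the pituitary list score, the mean centred log2 level of 8 pituitary-list miRNAs, with 1 point per calf and a vertical axis of its own for each member. In the 9 pituitary-marker-high libraries (filled) bta-miR-148a climbs with the score up to 35360 CPM and bta-miR-152 up to 122.7 CPM, and bta-miR-148b lies between 1126 and 1634 CPM, with an r to the score of 0.764 that is 0.0048 with scaling by library size alone.

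The ratios, which need no scaling, also moved between the sets. The ratio of bta-miR-148a to bta-miR-148b was 5.76 ± 1.14 in the low libraries (3.40 to 8.43) and 12.5 ± 4.92 in the high ones (7.21 to 21.6). bta-miR-148b stood at 29.6 ± 6.08 times bta-miR-152 in the low libraries and at 18.3 ± 6.50 times in the high ones. The ratio of bta-miR-148a to bta-miR-152 moved least, at 167 ± 31.1 and 208 ± 44.0. The libraries were sorted by measured marker levels, so these differences are given without a test.

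**Figure D4:**
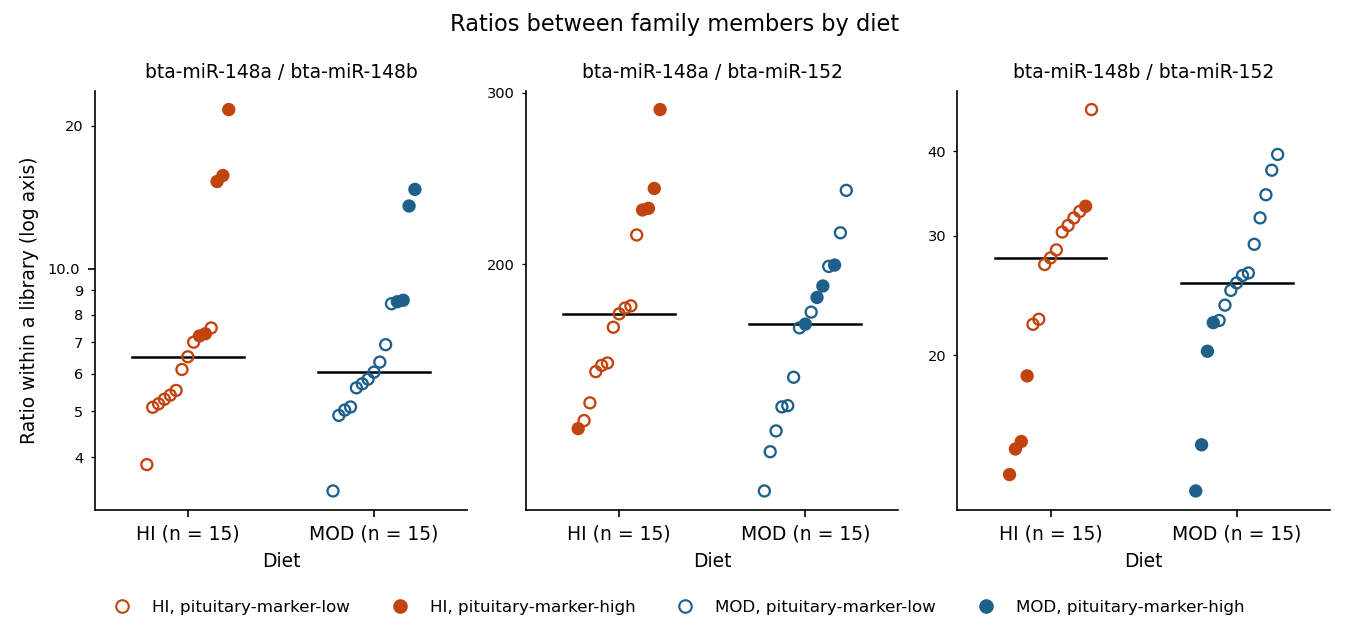
Ratio between members within each library by diet, on a logarithmic axis, with 1 point per calf and the median of each diet as a line. Filled points (pituitary-marker-high libraries) hold the highest ratios of bta-miR-148a to bta-miR-148b, up to 21.6 in HI and 14.7 in MOD calves, and the lowest of bta-miR-148b to bta-miR-152, down to 13.3 and 12.6. HI calves 9 and 14 lie among the open points for the first ratio (7.29 and 7.21), as does HI calf 14 for the last (33.2).

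Whether the members rose and fell together was examined within each set of libraries, since the calves formed separate sets. In the 21 low libraries they did not do so detectably. The correlation of bta-miR-148a with bta-miR-148b was r = -0.338 (permutation p = 0.134, rho = -0.219, permutation p = 0.336), with bta-miR-152 it was r = 0.162 (permutation p = 0.485, rho = 0.153), and that of bta-miR-148b with bta-miR-152 was r = -0.021 (permutation p = 0.930, rho = 0.103).

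In the 9 high libraries bta-miR-148a and bta-miR-152 rose together (r = 0.896, exact permutation p = 0.00127, adjusted over 3 pairs 0.00382; rho = 0.900, exact permutation p = 0.00203). Without the 2 calves farthest from the median of bta-miR-148a, r was 0.886, and with scaling by library size alone it was 0.805. bta-miR-148b had r = 0.769 with bta-miR-148a and 0.792 with bta-miR-152 (exact permutation p = 0.0156 and 0.0109), but with scaling by library size alone these became -0.173 and -0.295. A common movement of bta-miR-148b with its relatives was thus seen under 1 scaling and not under the other.

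The members and their ratios were then set against 8 lists of marker miRNAs for pituitary, choroid plexus and ependyma, neurons, oligodendrocytes, vessels, erythroid cells, leukocytes and liver. A list score is the mean over the list of centred log2 levels. This gave 96 relations over the 2 sets of libraries, and 17 had an adjusted permutation p below 0.05 for both r and rho. In the low libraries these were 2 of 24 relations of members and 3 of 24 of ratios. In the 9 high libraries, where several scores moved together, they were 7 of 24 and 5 of 24. The same count was not made for the other tested miRNAs. Many other miRNAs follow the same scores, above all in the 9 high libraries. The share of the 476 tested miRNAs with a lower r is therefore given beside these relations of members and ratios. For bta-miR-148a and bta-miR-148b with the vessel list in the high libraries it was 91.2% and 89.9%, which does not set them apart.

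bta-miR-152 went with the vessel list in each set. This list, led by the smooth muscle miRNA bta-miR-143 at a mean of 108756 CPM, also holds miR-126 of endothelium and miR-145, miR-199a and miR-214 of mural and connective tissue cells. In the 21 low libraries r was 0.695 (permutation p = 0.00061, adjusted over 96 relations 0.0113) and rho was 0.679. It was 0.719 in the 15 shallower and 0.820 in the 6 deeper of these libraries, 0.562 without the 2 farthest calves, and 0.554 with scaling by library size alone. In the 9 high libraries r was 0.961 and rho 0.950 (exact permutation p = 3.31e-05 for r, adjusted 0.00317). Of the tested miRNAs, 98.1% had a lower r with this list in the low libraries and 99.4% in the high ones. In the high libraries bta-miR-152 also rose with the pituitary list (r = 0.819, exact permutation p = 0.00667, adjusted 0.0337; rho = 0.867; 90.3% of miRNAs lower) and fell with the choroid plexus and ependyma list (r = -0.892, exact permutation p = 0.00129, adjusted 0.0138; rho = -0.883; 4.62% lower). The share for the pituitary list does not set bta-miR-152 apart. Vessel-list levels summed to 49180 to 207532 CPM in the low and to 57330 to 339385 CPM in the high libraries, with no marker at 0 in every library.

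The same relation was seen against bta-miR-148b within the library. The log2 ratio of bta-miR-148b to bta-miR-152 fell with the vessel score in the low libraries (r = -0.688, permutation p = 0.00059, adjusted 0.0113; rho = -0.618) and in the high ones (r = -0.917, exact permutation p = 0.000592, adjusted 0.0113; rho = -0.933). It was not particular to vessels: the ratio rose with the neuron list in the low libraries (r = 0.618, permutation p = 0.00278, adjusted 0.0228; rho = 0.617) and with the choroid plexus and ependyma list in the high ones (r = 0.842, exact permutation p = 0.00333, adjusted 0.0228; rho = 0.833). Of the tested miRNAs, 0% and 0.210% had a lower r with the vessel list in the low and high libraries. For the neuron list in the low libraries 94.7% had a lower r. For the choroid plexus and ependyma list in the high ones it was 89.1%, which does not set the ratio apart. bta-miR-152 rose with the leukocyte list in the 21 low libraries (r = 0.598, permutation p = 0.00418, adjusted 0.0251; rho = 0.544; 98.9% of miRNAs lower), and in the 9 high libraries r was 0.159 (exact permutation p = 0.682) and rho 0.183. bta-miR-148b itself had r = -0.246 with the vessel score in the low libraries (permutation p = 0.283). In the high ones it had r = 0.804 (exact permutation p = 0.00933, adjusted 0.0427; rho = 0.867), which became -0.139 with scaling by library size alone. With the neuron list in the low libraries bta-miR-148b had r = 0.454 (permutation p = 0.0386, adjusted 0.106), with 85.9% of miRNAs lower. Under scaling by library size alone r was 0.831 (permutation p = 2e-05, not adjusted) and rho 0.730. No share over all miRNAs was computed for that scaling. The part of vessel and leukocyte RNA in the level of bta-miR-152 was not tested.

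**Figure D5:**
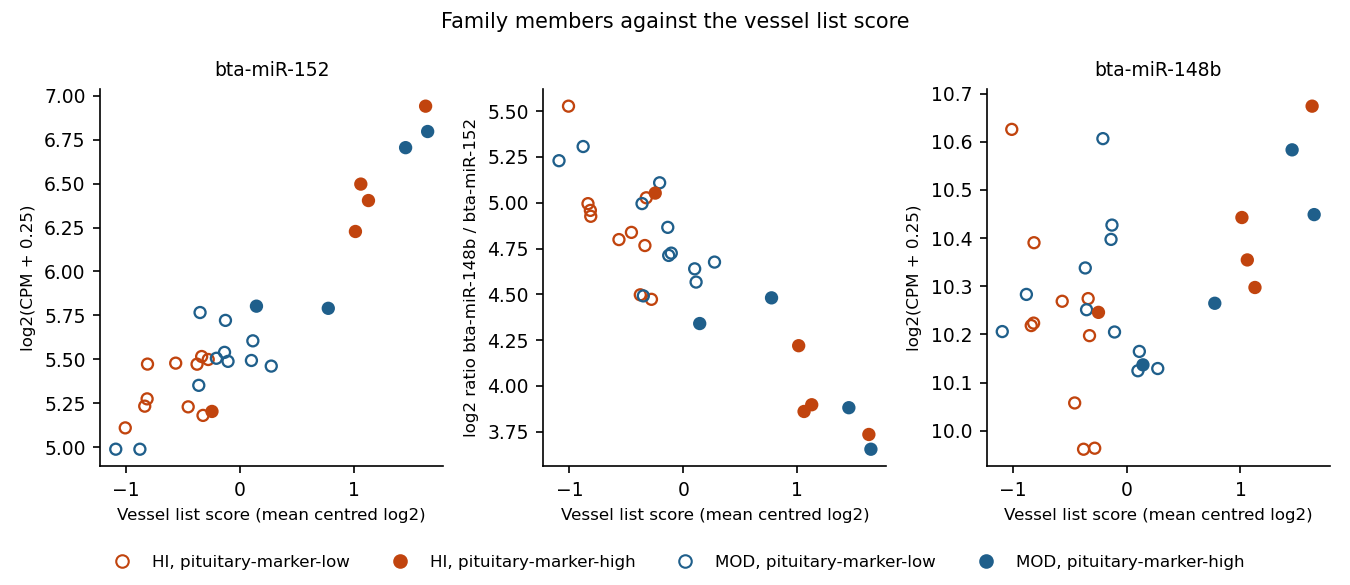
bta-miR-152 (left), the log2 ratio of bta-miR-148b to bta-miR-152 (middle) and bta-miR-148b (right) against the vessel list score, the mean centred log2 level of 7 miRNAs, with 1 point per calf. bta-miR-152 climbs and the ratio falls with the score in the open points (r = 0.695 and -0.688) and in the filled ones (r = 0.961 and -0.917), while for bta-miR-148b r is -0.246 in the open points and 0.804 in the filled ones, the latter being -0.139 with scaling by library size alone.

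bta-miR-148a went with the pituitary list within the high libraries (r = 0.912, exact permutation p = 0.00163, adjusted 0.0156; rho = 0.900; 95.6% of miRNAs lower), and r was 0.952 without the 2 farthest calves and 0.908 with scaling by library size alone. In the same libraries bta-miR-148a fell with the choroid plexus and ependyma list (r = -0.920, exact permutation p = 0.000708, adjusted 0.0113; rho = -0.833; 2.10% of miRNAs lower) and rose with the vessel list (r = 0.833, exact permutation p = 0.00356, adjusted 0.0228; rho = 0.850), with r of -0.820 and 0.692 under scaling by library size alone. For bta-miR-148b and the pituitary list r was 0.764 there (exact permutation p = 0.0167, adjusted 0.0593; rho = 0.817), and 0.0048 under scaling by library size alone. In the low libraries the relation to the pituitary list varied with the scaling and the depth. There r was 0.449 (permutation p = 0.0398, adjusted 0.106; rho = 0.386) with the deposited CPM and 0.638 (permutation p = 0.00205, not adjusted; rho = 0.695) with library size alone. It was 0.129 without the 2 farthest calves, 0.750 in the 15 shallower and -0.392 in the 6 deeper libraries. In the high libraries the pituitary score itself rose with the vessel score (r = 0.839, n = 9) and fell with the choroid plexus and ependyma score (r = -0.840) and the neuron score (r = -0.783), so these lists cannot be told apart there. In the low libraries the pituitary and vessel scores had an r of 0.048. The only list that went with the balance of bta-miR-148a to bta-miR-148b in the low libraries was the neuron list (r = -0.560, permutation p = 0.00813, adjusted 0.0390; rho = -0.606). The value in the 15 shallower of these was -0.706 and in the 6 deeper -0.255, and in the 9 high libraries it was -0.896 (exact permutation p = 0.000389, adjusted 0.0113). In the high libraries this balance also fell with the choroid plexus and ependyma list (r = -0.884, exact permutation p = 0.00303, adjusted 0.0228; rho = -0.833) and with the oligodendrocyte list (r = -0.828, exact permutation p = 0.00357, adjusted 0.0228; rho = -0.867). Of the tested miRNAs, 1.89% had a lower r with the neuron list in the low libraries and 1.68% in the high ones. For the choroid plexus and ependyma list and the oligodendrocyte list in the high libraries the shares were 5.25% and 2.94%.

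Among other miRNAs, those whose levels over the 30 libraries were most like bta-miR-148a were bta-miR-25 (r = 0.954), bta-miR-199b (0.943), bta-miR-2285ce (0.940), bta-miR-199c (0.937) and bta-miR-199a-3p (0.937). bta-miR-152 was number 20 of 475 in that order and bta-miR-148b number 132. In the 21 low libraries alone the same 5 values were 0.591, 0.316, 0.537, 0.505 and 0.505. The high libraries thus carried much of this likeness: 44 of 475 miRNAs had r above 0.8 with bta-miR-148a over 30 libraries and 0 over the 21.

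Most like bta-miR-152 were bta-miR-21-5p (r = 0.924), bta-miR-199a-3p (0.922), bta-miR-199c (0.922), bta-miR-339b (0.917) and bta-miR-199a-5p (0.912), with 0.637, 0.609, 0.609, 0.685 and 0.567 in the low libraries. bta-miR-148a stood at number 15 and bta-miR-148b at number 109. bta-miR-199a-3p and bta-miR-199c had nearly equal mean levels (301.4 CPM each) and may share reads, so they count as 1 observation.

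The list for bta-miR-148b was a different one and, over the 30 libraries, weaker. It held bta-miR-374b (r = 0.679), bta-miR-2285bf (0.678), bta-miR-1247-3p (0.628), bta-miR-374a (0.618) and bta-miR-376d (0.592). In the low libraries these values were 0.628, 0.677, 0.619, 0.445 and 0.542. The highest r of any miRNA in the low libraries was 0.753 with bta-miR-148b, 0.680 with bta-miR-148a and 0.685 with bta-miR-152, so bta-miR-148b was not weaker there. bta-miR-2285bf and bta-miR-1247-3p were low miRNAs, with means of 4.54 and 1.38 CPM. bta-miR-152 stood at number 25 and bta-miR-148a at number 41. All these correlations are descriptions over calves that share library scaling and depth.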

How the data were processed

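The authors trimmed reads with Cutadapt, kept 15 to 28 base reads, removed other short RNAs and counted known bovine miRNAs with miRDeep2 and Bowtie on ARS-UCD1.2. The labels name a stranded RNA kit and the paper's methods a small RNA kit. The deposited signal, 1 decimal value per calf and miRNA, has the form of CPM over TMM-scaled library sizes (recomputed scaling differed by at most 0.583%); the normalisation is not given in the sources used here. Dividing by the worth of 1 read gave whole reads (within 0.1) for 94.5% to 97.9% of values under 200 reads. Among the lowest values alone (up to 20 times the smallest), HI calf 6 had 94.8% whole, the only library under 95%, and was left out of the count tests, which ran on 29 libraries.

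Members, lists, thresholds and library sets were chosen with earlier results of these data known. The pituitary-marker sets come from a split of the pituitary list score. miRNAs with about 10 reads at the median depth of 8635350 (1.158 CPM) in at least 14 libraries were tested with limma 3.58.1 (lmFit, eBayes with trend) on log2(CPM + 0.25), 15 HI against 15 MOD calves, without covariates, with Benjamini-Hochberg adjustment. edgeR was set as the test if counts had been deposited; edgeR 4.0.16 (quasi-likelihood) and DESeq2 1.42.0 on recovered reads were alternatives. Ratios, levels and correlations were tested by 2-sided permutation (100000 resamples; exact with fewer than 10 libraries, and for the diets within a set of libraries) with scipy 1.17.1. Named beside the members were rows of the same family name, the 5 miRNAs of highest r with each member, its neighbours by mean level, the 3 of smallest p in the milk, lipid and DNA methyltransferase lists, and the most abundant marker of the lists described. Each calf counts as 1 replicate. Fits were tested on simulated data. RefSeq gave gene positions as neighbours only, since its build differs from the authors'. Mature sequences were not used here.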

Additional observations from a re-analysis of the deposited data

How the results depend on the processing

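No paired analysis was possible because each calf received 1 diet and no number pairs the calves. No member passed the diet thresholds under any alternative run, so changes of sign below concern differences that were not called; the cause was not tested except where stated. bta-miR-148a reversed in DESeq2 (-0.20), with the animal code class (-0.081) or the pituitary score (-0.022) as a term, without the pituitary-marker-high libraries (-0.058) and in the deeper libraries (-0.18). DESeq2 with outlying counts not replaced, added after seeing the data, gave 0.13 but no p for bta-miR-148a, so that run did not test it. With limma on the same 29 libraries the difference was 0.01, so the replacement accounts for the sign. bta-miR-148b reversed with the code class (0.011) and in the shallower libraries (0.027), and bta-miR-152 in the shallower libraries (0.057). Leaving out 1 calf at a time gave -0.043 to 0.189 for bta-miR-148a, -0.053 to -0.0019 for bta-miR-148b and -0.110 to 0.063 for bta-miR-152.

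In the deeper libraries the ratios of bta-miR-148a to bta-miR-148b (-0.049) and to bta-miR-152 (-0.00070) reversed, as did that of bta-miR-148b to bta-miR-152 (0.048; 0.033 without the pituitary-marker-high libraries). Leaving out 1 calf gave 0.010 to 0.202, 0.067 to 0.15 and -0.077 to 0.057. The order of levels kept its direction and its test in every alternative run.

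Correlations over all 30 calves span the 2 sets of libraries. That of bta-miR-148a with bta-miR-148b was -0.115 with library size alone, 0.378 in the shallower, 0.619 in the deeper, -0.338 in the pituitary-marker-low libraries (-0.343 after removing depth means, 0.272 with library size alone), -0.173 in the high ones with library size alone, and 0.119 without the 2 farthest calves. By r, that of bta-miR-148a with bta-miR-152 lost its call only in the low libraries (0.162; 0.159 after removing depth means; 0.173 with library size alone). By rho it also lost its call in the shallower libraries (rho = 0.494, adjusted permutation p = 0.0741). The same held in the high ones with library size alone (rho = 0.750, adjusted exact permutation p = 0.0765). That of bta-miR-148b with bta-miR-152 was -0.044 with library size alone, 0.378 in the shallower libraries, -0.021 in the low ones (-0.026 and 0.382 under the same changes) and -0.295 in the high ones with library size alone.

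The count of called miRNAs was 0 by limma and by edgeR (16 at an unadjusted p below 0.05) and 1 by DESeq2, with or without the replacement; leaving out 1 calf gave 0 to 1 by limma, with 1 without HI calf 11 and 1 without MOD calf 15. Each of these was bta-miR-2419-3p, which is outside the family. An unadjusted p below 0.05 with no fold threshold gave 21. Depth limits bta-miR-152 most, at 281 reads in its lowest library, and intervals on single levels cover calves and not counting alone.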
